A study of Mus musculus with 6 samples.

Results

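Stromal cells of the mouse omentum that carried the surface protein CD105 were compared with stromal cells that lacked it, at matched activity of aldehyde dehydrogenase (ALDH). The omentum is the fat-rich fold of the peritoneum that holds milky spots, clusters of lymphocytes and macrophages set in stroma. The comparison used 4 of the 6 RNA-seq libraries of the series, chosen by their sort gates and not by any measured value, in 2 pairs. P2 (CD45- CD140a+ CD105+ with intermediate ALDH activity) was set over P4 (CD45- CD140a+ CD105- with intermediate ALDH activity). P3 (CD45- CD140a+ CD105+ with low ALDH activity) was set over P5 (CD45- CD140a+ CD105- with low ALDH activity). The pairs shared no library. The other libraries were P1 (CD45- CD140a+ CD105+ with high ALDH activity) and P6 (CD140a low, CD45- and ALDH positive), and their values are given side by side only. All cells came from untreated WT mice of the C57BL/6 strain, and the number of mice behind a library, their age and any pooling are not given in the sources used here. Each population had 1 library, so ratios compare libraries and no p-values were computed. Intermediate and low ALDH populations are different populations and not replicates of each other.

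CD105 is endoglin, a co-receptor that presents TGF-beta family ligands, above all BMP9 and BMP10, to the type I receptor ALK1 (*Acvrl1*) and the type II receptors. The receptors then phosphorylate SMAD proteins, which enter the nucleus and switch on target genes such as the *Id* genes. Endoglin is best known from endothelial cells, but subsets of fibroblasts and mesenchymal progenitors carry it too. CD140a is PDGFRA, the receptor for platelet-derived growth factor that marks fibroblasts and preadipocytes. The omental surface is covered by mesothelium, an epithelium-like layer that makes uroplakins and keratins.

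The sequence just before the transcription start is shown for 4 genes, *Eng* and *Cilp*, which were much higher in both CD105+ libraries, and *Upk3b* and *Lrrn4*, which were much lower. Each stretch holds the 250 bases before the start, read 5′ to 3′ on the gene's strand, from RefSeq on GRCm38.p6. *Eng* lies on the plus strand (chr2:32646345-32646594), *Cilp* on the plus strand (chr9:65264930-65265179), *Upk3b* on the plus strand (chr5:136038246-136038495) and *Lrrn4* on the minus strand (chr2:132880863-132881112). Capitals mark GGAATG or its reverse complement, an element bound by TEAD factors.
Eng: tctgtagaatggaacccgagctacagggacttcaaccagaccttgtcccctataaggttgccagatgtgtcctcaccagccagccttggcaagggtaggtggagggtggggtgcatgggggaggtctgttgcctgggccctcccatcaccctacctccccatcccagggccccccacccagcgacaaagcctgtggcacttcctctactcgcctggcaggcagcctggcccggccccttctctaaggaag
Cilp: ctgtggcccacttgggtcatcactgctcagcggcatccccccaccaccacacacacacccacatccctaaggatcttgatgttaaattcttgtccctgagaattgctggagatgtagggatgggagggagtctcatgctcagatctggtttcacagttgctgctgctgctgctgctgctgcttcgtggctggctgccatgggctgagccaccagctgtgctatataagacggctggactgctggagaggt
Upk3b: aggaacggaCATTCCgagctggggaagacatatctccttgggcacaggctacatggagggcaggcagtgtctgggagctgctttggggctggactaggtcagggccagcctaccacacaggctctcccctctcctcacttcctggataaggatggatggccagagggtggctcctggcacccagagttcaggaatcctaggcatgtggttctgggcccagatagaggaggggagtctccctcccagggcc
Lrrn4: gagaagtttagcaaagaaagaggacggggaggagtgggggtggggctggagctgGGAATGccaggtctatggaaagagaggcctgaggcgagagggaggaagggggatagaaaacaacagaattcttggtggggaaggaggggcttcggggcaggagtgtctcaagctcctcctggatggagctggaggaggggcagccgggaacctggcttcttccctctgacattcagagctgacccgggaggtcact
The element stood 241 to 236 bases before the start in *Upk3b* and 196 to 191 bases before it in *Lrrn4*, and these letters are not in the windows of *Eng* and *Cilp*. Among the genes called by the rule given further on, 291 of the 438 higher genes and 437 of the 651 lower genes had an entry in the table of promoters. GGAATG was held by 13.4% of the windows of higher genes, 16.7% of those of lower genes, 10.8% of those of 8766 tested genes with an entry and 12.6% of all 27025 windows. The TATA box letters TATAAA were held by 14.1% of higher, 10.3% of lower and 6.07% of tested genes and by 13.0% of all windows, and CANNTG (an E-box) by 62.2%, 68.4%, 55.9% and 66.0%. GGCGCC, bound by the SMAD proteins of the BMP branch, was held by 16.2% of higher, 14.4% of lower and 17.1% of tested genes and by 9.54% of all windows, and GTCTAG, from the palindromic SMAD box, by 6.53%, 7.32%, 7.27% and 7.25%. CCAAT was held by 34.4%, 32.3%, 36.5% and 34.5%, and AGATAA, bound by GATA factors, by 6.53%, 8.7%, 5.62% and 10.3%. Both strands were searched. These shares describe letters and not sites.

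Expression was deposited by the authors as FPKM, a read level scaled to transcript length and to library depth, for 23352 gene symbols. Estimated depth was 58.5 to 61.6 M reads in P2 to P5, 53.3 M in P1 and 36.9 M in P6. FPKM is a level per length, so levels of different genes are on the same scale. A gene was called when the log2 ratio of FPKM + 0.1 was at least 1 in size (2-fold) and the higher library held at least 1 FPKM, and a gene was called in both pairs when this held for each pair in the same direction. Bulk libraries cannot tell fewer cells of a type from less RNA per cell, and this holds for each difference given here.

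The genes of CD105, CD140a and CD45 followed the labels of the sort, and *Aldh1a1*, *Aldh1a2* and *Aldh1a3* did not do so throughout. The ALDH gate reads enzyme activity, and which enzymes lie behind it was not tested. *Eng* was 52.2 FPKM in P2 and 42.6 FPKM in P3, against 0.359 FPKM in P4 and 0.231 FPKM in P5, and it was 52.4 FPKM in P1 and 0.728 FPKM in P6. The ratio was 146 (95% interval 115 to 189) at intermediate ALDH and 184 (137 to 250.0) at low ALDH, where the intervals here and elsewhere cover counting error only. *Eng* encodes the protein the cells were sorted on, so this is a check of the sort. *Pdgfra*, the gene of CD140a, was 154 and 153 FPKM in P2 and P3 and 119 and 117 FPKM in P4 and P5, a log2 ratio of 0.37 and 0.39, and 5.36 FPKM in P6. The leukocyte gene *Ptprc* (CD45) stayed under 1 FPKM in all 6 libraries. *Pecam1*, which marks endothelium, was 0.370, 0.552, 0.067 and 0.096 FPKM in P2 to P5. *Aldh1a3*, which encodes an enzyme that makes retinoic acid, was 38.2 and 23.3 FPKM in P2 and P3 and 8.99 and 6.73 FPKM in P4 and P5. *Aldh1a2*, another such enzyme, was 78.8 FPKM in P2 against 285 FPKM in P4, but 134 FPKM in P3 against 145 FPKM in P5. The pair matched at intermediate ALDH activity thus differed in this mRNA by a log2 ratio of -1.85, and the pair at low activity by -0.12. Within CD105+ cells this mRNA was higher in the low ALDH library (P3) than in the intermediate one (P2). *Aldh1a1*, which encodes a further enzyme of this kind, was 63.4 FPKM in P2, 64.7 FPKM in P3, 78.3 FPKM in P4 and 90.7 FPKM in P5, so it was no lower in the low ALDH libraries than in the intermediate ones.

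The other marker genes given for the CD105+ cells were higher in both pairs. They were chosen with earlier results of these data known, so this is no independent check. *Cilp*, a secreted matrix protein first found in cartilage, was 88.3 and 43.0 FPKM in P2 and P3 and 7.40 and 3.76 FPKM in P4 and P5. *Mfap4*, a microfibril-associated protein, was 26.0 and 12.3 FPKM in P2 and P3 and 1.69 and 1.95 FPKM in P4 and P5. *Cxcl14*, a chemokine, was 8.88 and 9.77 FPKM in P2 and P3 and 2.1 and 1.04 FPKM in P4 and P5. For each of these 3 genes both CD105+ libraries stood above both CD105- libraries.

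At intermediate ALDH, 597 of 12181 tested genes were higher in P2 (4.9%) and 930 were lower (7.63%). At low ALDH, 891 of 12152 genes were higher in P3 (7.33%) and 764 were lower (6.29%). Of 11928 genes tested in both pairs, 438 were higher in CD105+ cells in both (3.67%) and 651 were lower in both (5.46%). These percentages are the background for the gene lists. The 438 genes were 73.4% of the higher genes of P2 over P4 and 49.2% of those of P3 over P5. The 651 genes were 70.0% of the lower genes of P2 over P4 and 85.2% of those of P3 over P5. Across the 11928 genes, the log2 ratios of the pairs had a Pearson correlation of 0.742 and a Spearman correlation of 0.835. Genes are not independent, and the pairs share the sorting and library method. Genes listed at 0 in a library, such as *Gsn* and *Col3a1*, entered both values with extreme ratios. The median log2 ratio was -0.08 in the first pair and -0.09 in the second. At 4-fold in both pairs, 65 genes were higher and 215 lower. At 8-fold the counts were 15 and 34, and at 16-fold they were 4 and 8. The lower counts include *Gsn*, which was listed at 0 in P2 and P3, as described below. More genes were thus lower than higher past each of these folds.

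**Figure D1:**
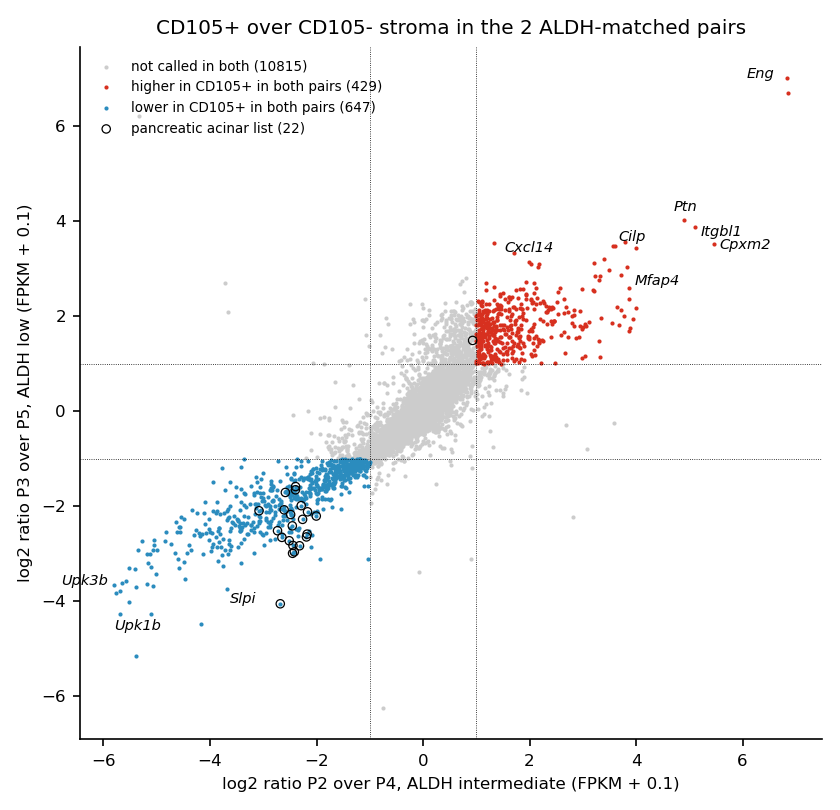
Log2 ratio of CD105+ over CD105- at intermediate ALDH (horizontal axis) against that at low ALDH (vertical axis), 1 point per gene tested in both pairs and above 0 FPKM in P2 to P5, with dotted lines at 2-fold. The points called higher in both pairs (red, 429) reach furthest at Eng, the points called lower (blue, 647) reach furthest at the uroplakin genes, and all but 1 of the 22 circled acinar genes lie among the lower genes.

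The higher and lower genes differed in where else they were found. The median level of the 438 higher genes was 7.2 FPKM in P2, 6.71 FPKM in P3, 1.85 FPKM in P4 and 1.70 FPKM in P5, with 3.72 FPKM in P1 and 1.25 FPKM in P6. The median of the 651 lower genes was 1.83 FPKM in P2, 2.97 FPKM in P3, 10.9 FPKM in P4 and 11.4 FPKM in P5, with 1.15 FPKM in P1 and 15.6 FPKM in P6. Of the lower genes, 396 (60.8%) had their highest level in P6, 217 in P5 and 37 in P4, whereas 35.7% of all genes tested were highest in P6. Of the higher genes, 229 were highest in P2, 108 in P3, 67 in P1 and 34 (7.76%) in P6. Scaling of the libraries bore on the balance. Higher genes were 40.2% of the genes called in both pairs as deposited, 45.0% after scaling by the median of ratios, 44.5% after quantile normalization and 74.5% after division by *Gapdh*, a glycolysis gene that was itself 218 and 224 FPKM in P2 and P3 and 302 and 326 FPKM in P4 and P5. Division by *Gapdh* moved the median log2 ratio to 0.39 and 0.45. No called gene among the 439 followed by name or list changed direction under any scaling. For the median of ratios and *Gapdh* this was fixed in advance, since each shifts the ratios of a pair by less than 2-fold. Calls near the threshold were lost. After division by *Gapdh*, the lower genes *Twsg1*, *Cxcl2*, *Gata6*, *Dpp4* and *Mrc1* were called in neither pair, and *Il34*, *Igfbp6*, *Cd74*, *Kdr*, *Krt8*, *Acta2*, *Myh11*, *Rdh10* and *Oas2* in 1 pair only. After quantile normalization, *Dpt*, *Lpl*, *C4b* and *Serpinf1* were no longer called at intermediate ALDH nor *Igfbp7* at low ALDH, and *Dpp4* lost its call at intermediate ALDH by this and by the median of ratios. With a pseudocount of 1 FPKM, *Ccl8*, *Col4a3* and *Hoxb5* were called in neither pair. Near the threshold, *Jam2* was just inside the higher set (17.8 and 16.3 FPKM over 8.84 and 7.96 FPKM) and *Impdh1* just outside (5.91 and 5.23 FPKM over 2.44 and 2.57 FPKM). *Zbp1* was just inside the lower set (22.3 and 21.8 FPKM against 44.8 and 45.8 FPKM) and *Gbp10* just outside (4.03 and 5.22 FPKM against 9.33 and 10.5 FPKM).

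Among the genes higher in CD105+ cells, *Ptn* came next after *Eng* by the smaller of its ratios in the pairs. It encodes pleiotrophin, a heparin-binding growth factor. It was 7.95 FPKM in P2 and 13.5 FPKM in P3, against 0.169 FPKM in P4 and 0.738 FPKM in P5, a ratio of 47.1 (29.4 to 77.0) and 18.3 (14.7 to 23.0). *Itgbl1*, which resembles the extracellular part of a beta integrin, was 18.6 and 9.27 FPKM in P2 and P3 and 0.443 and 0.533 FPKM in P4 and P5. *Cpxm2*, an inactive member of the carboxypeptidase family, was 26.7 and 16.3 FPKM in P2 and P3 and 0.511 and 1.33 FPKM in P4 and P5. These 3 genes stood at 0.617, 2.39 and 2.02 FPKM in P1, which was CD105+ but well below P2 and P3. *Wisp2*, a secreted protein of the CCN family, was 12.1 and 6.36 FPKM against 0.910 and 0.483 FPKM. *Csf2rb*, the shared beta chain of the receptors for GM-CSF, IL-3 and IL-5, was 11.8 FPKM in P2 and 29.8 FPKM in P3 against 1.03 and 3.12 FPKM in P4 and P5. *Kcne4*, a subunit that modulates potassium channels, was 25.4 and 27.3 FPKM against 1.70 and 3.22 FPKM. Unlike *Eng*, which was alike in P1 and P2, *Csf2rb* was 1.12 FPKM and *Kcne4* 6.83 FPKM in P1.

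The rest of the 15 genes are described next. *Fgf23*, a hormone of phosphate balance that is best known from bone, was 11.9 FPKM in P2 and 16.3 FPKM in P3, against 1.90 FPKM in P4 and 2.61 FPKM in P5. It was 3.93 FPKM in P1 and 0.034 FPKM in P6, so it was far lower in P6 than in the 5 CD140a+ libraries. *Bmp4*, a BMP ligand, and *Chrdl1*, a secreted BMP antagonist, were both in the top 15. *Lrg1*, a secreted leucine-rich glycoprotein that modulates TGF-beta signaling, was 8.64 and 10.6 FPKM against 0.829 and 1.39 FPKM, but its highest level was in P6 (15.8 FPKM). *Ppp1r14a*, an inhibitor of myosin phosphatase, was 8.12 and 6.96 FPKM against 0.933 and 1.08 FPKM and was listed at 0 in P6. *Cldn22*, a claudin, was 7.30 and 6.46 FPKM against 1.08 and 1.17 FPKM. In all 15 genes both CD105+ libraries exceeded both CD105- libraries, which the choice by the smaller ratio largely fixes.

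Among the genes lower by most in CD105+ cells, *Upk3b* and *Upk1b* encode uroplakins. *Upk3b* was 6.78 FPKM in P2 and 22.7 FPKM in P3, against 383 FPKM in P4 and 289 FPKM in P5, and it was 56.5-fold higher (53.6 to 59.6) in P4 than in P2 and 12.7-fold higher (12.3 to 13.1) in P5 than in P3. *Upk1b* was 0.743 and 1.28 FPKM in P2 and P3 and 43.5 and 26.6 FPKM in P4 and P5. *Lrrn4*, a leucine-rich repeat membrane protein, was 2.40 and 7.65 FPKM in P2 and P3 and 135 and 110.4 FPKM in P4 and P5. The 3 genes were higher still in P6, at 1139.8, 324 and 308 FPKM. *Krt19*, a keratin of simple epithelia, was 5.33 and 9.18 FPKM against 197 and 116 FPKM. *Podxl*, the sialomucin podocalyxin, was 1.94 and 7.05 FPKM against 97.0 and 85.2 FPKM. *Gpm6a*, a membrane glycoprotein, was 1.86 and 6.12 FPKM against 98.9 and 77.0 FPKM. In each of these genes P3 stood above P2, and P4 stood above P5, so the ratio was larger at intermediate ALDH.

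Apart from *Gsn*, the rest of the 15 lower genes were likewise higher in both CD105- libraries than in both CD105+ libraries. Their choice by the smaller ratio largely fixes this. *Slpi*, a secreted inhibitor of leukocyte proteases, was 1.34 FPKM in P2 and 0.708 FPKM in P3, against 18.4 FPKM in P4 and 10.7 FPKM in P5. *Palmd* (palmdelphin), *Pkhd1l1*, *Dmkn* and *Lrp2* (megalin, an endocytic receptor) had levels of 0.25 to 7.03 FPKM in the CD105+ libraries and 10.9 to 81.7 FPKM in the CD105- libraries. *Krt76*, *Il18r1* and *Ear1* had their highest level in P5 or P4 and not in P6. *Krt76*, a keratin, was 0.276 and 1.10 FPKM in P2 and P3, 12.5 and 15.3 FPKM in P4 and P5 and 9.20 FPKM in P6. *Il18r1*, a chain of the receptor for IL-18, was 0.207 and 0.483 FPKM in P2 and P3 and 6.73 and 6.63 FPKM in P4 and P5. *Ear1* was 0.1 and 0.354 FPKM against 8.35 and 5.80 FPKM, and it belongs to a family of near-identical ribonucleases, so its reads are uncertain. *Gsn* (gelsolin, which severs actin filaments) was listed at 0 in P1, P2 and P3 and at 5350.4, 2092 and 328.5 FPKM in P4, P5 and P6. No ratio is given for it, because a listed 0 can be a failed estimate: *Serbp1*, a gene that most cells use, was listed at 0 in P3 to P6 and at 29.1 and 30.2 FPKM in P1 and P2, and *Col3a1* was listed at 0 in P2 and lay between 2100.2 and 3389.6 FPKM in the other libraries. Among the genes called in both pairs, 9 higher and 4 lower genes, *Gsn* included, were listed at 0 in at least 1 of P2 to P5. The paper names *Gsn* among genes highly expressed in the single-cell cluster it matched to *Aldh1a2*+ cells, the cells of P1.

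**Figure D2:**
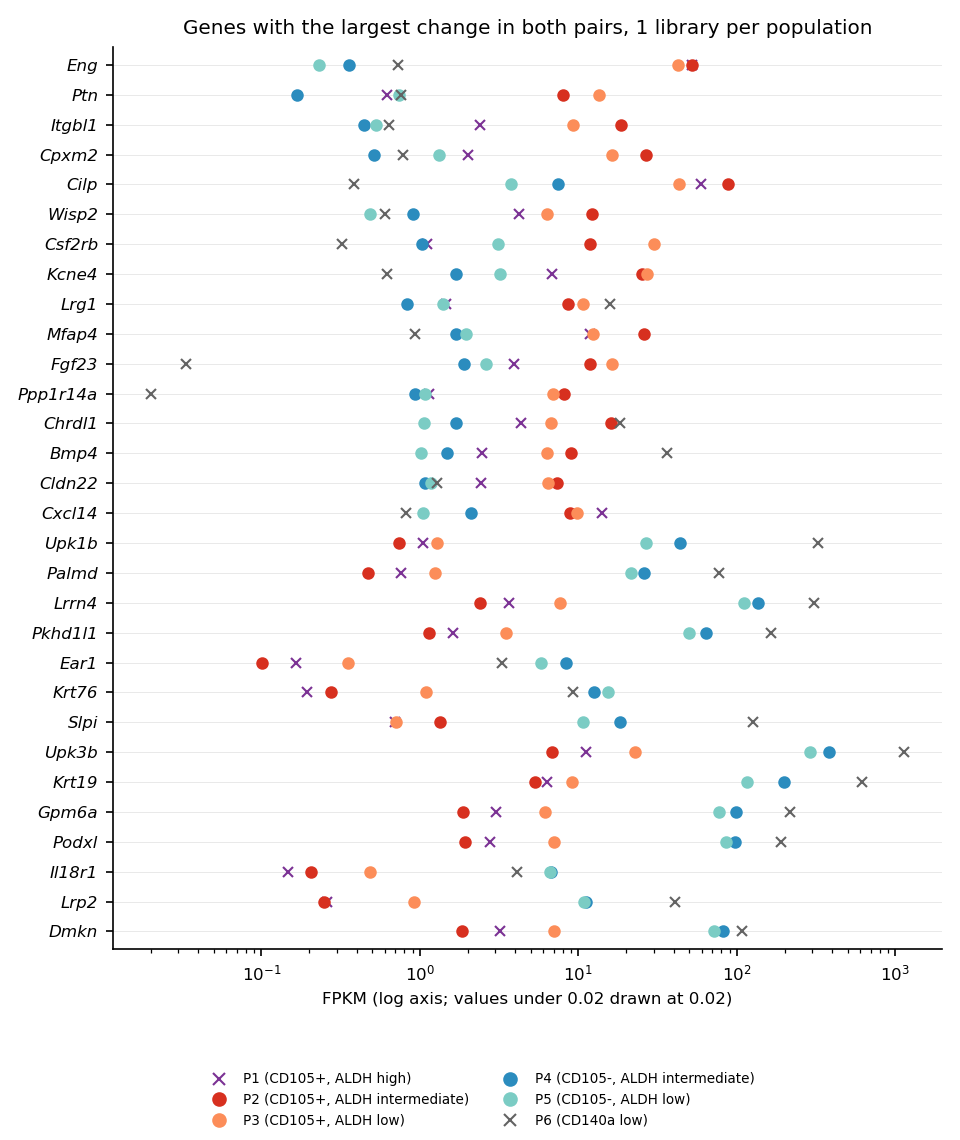
FPKM (log axis) of the 15 genes with the largest difference upward, of Cxcl14, and of 14 of the 15 genes with the largest difference downward (Gsn, listed at 0, is left out), 1 point per library. In every row the P2 and P3 points lie on the same side of the P4 and P5 points, and in most of the lower rows the P6 cross is furthest to the right. Cxcl14 aside, the choice of the genes by their ratios in both pairs largely fixes the side.

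The receptors that endoglin works with differed less than endoglin, the protein the cells were sorted on. The sort itself sets *Eng* apart, so this contrast is not a result about those receptors. Of 11 tested receptors of the TGF-beta family, *Eng* included, *Eng* was the one called in both pairs. The median log2 ratio of the 11 was 0.02 at intermediate ALDH and -0.02 at low ALDH. *Acvrl1*, the ALK1 receptor, was 54.6 and 45.3 FPKM in P2 and P3 and 33.2 and 23.5 FPKM in P4 and P5, a log2 ratio of 0.72 and 0.94, under the threshold in both pairs. *Tgfbr1* ran the other way, with 10.4 and 15.2 FPKM against 18.4 and 32.7 FPKM, and passed the threshold at low ALDH only (-1.10). *Tgfbr2* was 114 and 92.1 FPKM against 112 and 82.0 FPKM, and *Bmpr2* was 18.5 and 17.4 FPKM against 18.0 and 17.6 FPKM.

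Ligands of the family were called in both directions. Of 10 tested ligands, 3 were higher and 1 lower in both pairs, with a median log2 ratio of -0.11 and -0.19. *Bmp4* was 9.05 and 6.32 FPKM in P2 and P3 and 1.47 and 1.02 FPKM in P4 and P5, and its level in P6 was 36.4 FPKM. *Gdf10* (BMP3B) was 502 and 357 FPKM against 185 and 66.6 FPKM, and it was 561 FPKM in P1 and 3.13 FPKM in P6. The activin subunit genes moved apart. *Inhbb* was 50.1 and 45.4 FPKM in P2 and P3 and 7.51 and 10.5 FPKM in P4 and P5, and it was 8.83 FPKM in P1. In contrast, *Inhba* was 0.658 and 1.27 FPKM in P2 and P3 and 5.59 and 5.24 FPKM in P4 and P5. *Tgfb1* differed little, at 6.87 and 7.0 FPKM against 6.92 and 7.58 FPKM. *Gdf2*, the gene of the endoglin ligand BMP9, stayed under 0.3 FPKM in all libraries, and *Bmp10* was listed at 0 in all of them.

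In the list of TGF-beta and BMP inhibitors and latent binding proteins, 4 of 15 tested genes were higher in CD105+ cells in both pairs and 1 was lower, with a median log2 ratio of 0.71 and 0.81. *Nog* (noggin), a secreted BMP antagonist, was 10.3 and 7.55 FPKM in P2 and P3 and 1.85 and 1.56 FPKM in P4 and P5. *Chrdl1* was 16.2 and 6.74 FPKM against 1.69 and 1.07 FPKM. The level of *Chrdl1* was highest in P6 (18.4 FPKM). *Fstl3*, which binds activins, was 11.2 and 7.12 FPKM against 5.19 and 2.60 FPKM. *Twsg1*, which modulates BMPs in either direction, was the lower one, at 94.2 and 107 FPKM against 216 and 239 FPKM. Of 17 SMADs and target genes, 3 were higher and none lower in both pairs, with a median log2 ratio of 0.25 and 0.28. *Id2* and *Id4*, inhibitors of basic helix-loop-helix factors that BMP signals induce, were 181 and 155 FPKM against 70.9 and 70.6 FPKM, and 40.1 and 32.0 FPKM against 11.5 and 9.94 FPKM. *Ctgf*, a matricellular protein, was 20.0 and 18.1 FPKM in P2 and P3 and 4.98 and 1.95 FPKM in P4 and P5. The shares of the ligand, inhibitor and target lists called higher were above the 3.67% of all genes, and they rest on 3, 4 and 3 genes. The shares called lower, 1 of 10 ligands and 1 of 15 inhibitors, were also above the 5.46% of all genes called lower. The lists were chosen with earlier results of these data known.

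**Figure D3:**
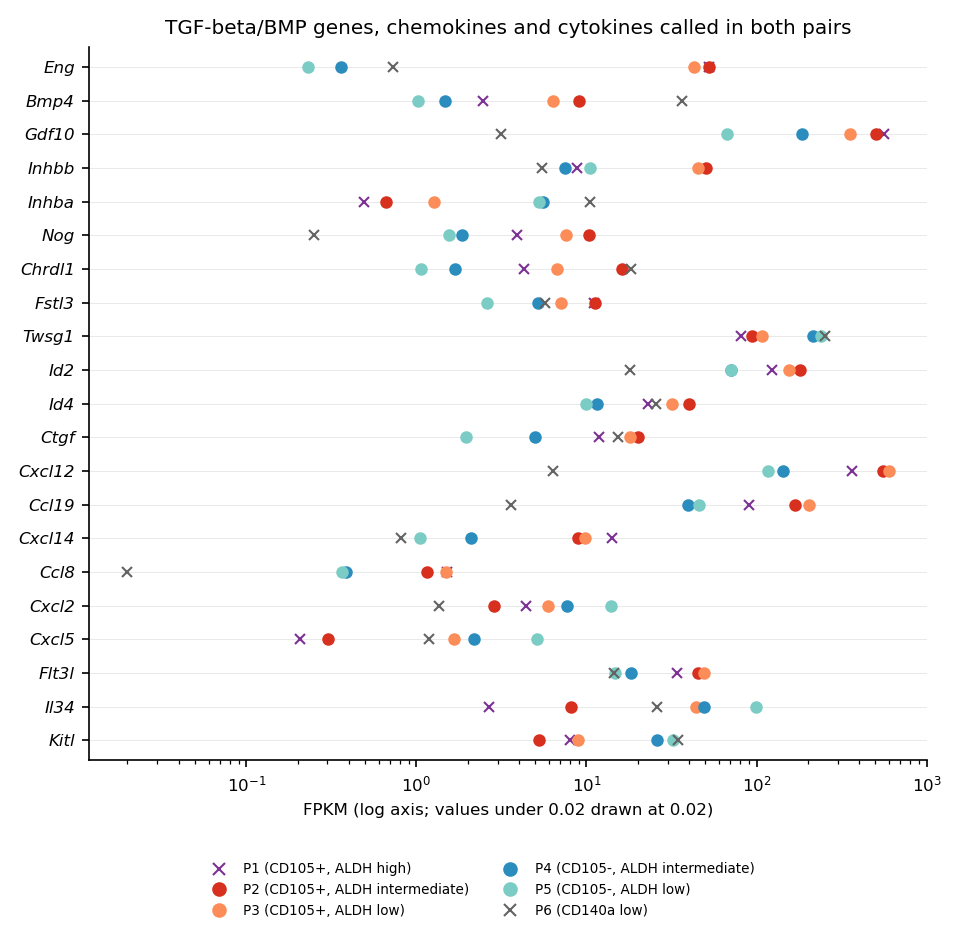
FPKM (log axis) of 21 of the listed TGF-beta and BMP genes, chemokines and cytokines that were called in both pairs, 1 point per library. Inhba, Twsg1, Cxcl2, Cxcl5, Il34 and Kitl lie lower in P2 and P3 (red and orange) than in P4 and P5 (blue and green), and the other genes lie higher.

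Genes of fibroblastic reticular cells, the stroma that organizes lymphoid tissue, were higher in both pairs in 4 of 15 tested and lower in none, with a median log2 ratio of 0.57 and 1.03. *Ccl19*, which attracts T cells and dendritic cells, was 168 and 204 FPKM in P2 and P3 and 39.8 and 46.0 FPKM in P4 and P5. *Cxcl12*, the ligand of CXCR4, was 551 and 597 FPKM against 144 and 117 FPKM, and 6.36 FPKM in P6. *Matn2*, a matrix adaptor protein, was 114 and 80.3 FPKM against 16.2 and 20.1 FPKM. *Dpt* (dermatopontin) was 1389 and 986 FPKM against 649.6 and 264 FPKM. Not every gene of this list went that way. *Cxcl13*, which attracts B cells, was 304 FPKM in P2 against 825 FPKM in P4, and 2089.6 FPKM in P3 against 3464 FPKM in P5, a log2 ratio of -1.44 and -0.73. *Pdpn* and *Icam1* differed by less than 2-fold in both pairs.

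Of 17 tested chemokines, 4 were higher and 2 lower in both pairs, with a median log2 ratio of 0.01 and 0.20. Besides *Ccl19*, *Cxcl12* and *Cxcl14*, *Ccl8* was called higher from levels of 1.15 and 1.49 FPKM against 0.386 and 0.366 FPKM. The lower ones were ligands that recruit neutrophils through CXCR2. *Cxcl2* was 2.86 and 5.95 FPKM in P2 and P3 and 7.71 and 13.9 FPKM in P4 and P5, and *Cxcl5* was 0.301 and 1.65 FPKM against 2.19 and 5.11 FPKM. *Cxcl1*, of the same group, was 218 and 268 FPKM against 241 and 305 FPKM and was not called. *Ccl11* (eotaxin) was alike at intermediate ALDH (337 against 341 FPKM) and higher in P3 than in P5 (368 against 97.4 FPKM).

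Growth factors for blood cells were called in both directions, 1 of 10 higher and 2 lower. *Flt3l*, which drives dendritic cell development, was 45.4 and 48.8 FPKM in P2 and P3 and 18.4 and 14.8 FPKM in P4 and P5. *Il34*, a ligand of the CSF1 receptor, was 8.14 FPKM in P2 against 49.2 FPKM in P4, and 43.9 FPKM in P3 against 99.4 FPKM in P5. *Kitl* (stem cell factor) was 5.27 and 8.91 FPKM against 25.9 and 32.2 FPKM. *Csf1*, the other CSF1 receptor ligand, was 190.1 and 189 FPKM against 156 and 136 FPKM and was not called.

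Fat tissue holds fibroblast-like progenitors that earlier work divides by *Dpp4*, *Icam1* and *F3*. Of 10 tested genes of the *F3* type, 5 were higher in CD105+ cells in both pairs and none lower, with a median log2 ratio of 1.25 and 1.60. *F3* (tissue factor) was 111 and 75.2 FPKM in P2 and P3 and 30.2 and 18.0 FPKM in P4 and P5. *Fmo2*, a flavin monooxygenase, was 111 and 75.2 FPKM against 15.5 and 18.4 FPKM. *Cygb* (cytoglobin) was 232 and 167 FPKM against 79.3 and 32.5 FPKM. *Meox2*, a homeobox factor, was 4.49 and 2.76 FPKM against 0.230 and 0.143 FPKM, and *Gdf10* completed the group. Other genes of this type were not called. *Mgp*, an inhibitor of calcification, was 355 and 273 FPKM against 423 and 415 FPKM, and *Gas6* was 274 and 216 FPKM against 244 and 265 FPKM.

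Of 16 tested genes of the *Icam1* preadipocyte type, 6 were higher in both pairs and none lower, with a median log2 ratio of 0.71 and 1.42. *Sparcl1*, a matricellular protein, was 277 and 226 FPKM in P2 and P3 and 56.1 and 52.8 FPKM in P4 and P5. *Lpl* (lipoprotein lipase) was 359 and 333 FPKM against 180 and 83.1 FPKM. *Cebpa*, a factor that drives adipocyte formation, was 35.2 and 31.6 FPKM against 15.5 and 7.85 FPKM. *Ggt5*, *Cd36* and *Dlk1* were the other members called, and *Dlk1* was at most 1.74 FPKM, with 0.041 FPKM in P1. *Pparg* was 8.72 and 8.04 FPKM against 6.15 and 2.30 FPKM and was called at low ALDH only. *Icam1* itself was 59.5 and 81.5 FPKM against 52.0 and 78.9 FPKM. In the *Dpp4* progenitor type, 1 of 20 was higher and 2 were lower, with a median log2 ratio of 0.07 and 0.77, and the higher share is close to the 3.67% of all genes. *Pi16*, a marker of adventitial fibroblasts, was 148 and 49.6 FPKM in P2 and P3 and 40.2 and 18.2 FPKM in P4 and P5. *Dpp4*, a surface peptidase, was 5.17 and 2.20 FPKM against 11 and 5.42 FPKM, and it was 71.2 FPKM in P6.

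Most structural matrix genes differed by less than 2-fold in at least 1 of the pairs. Of 22 tested collagens, 2 were called higher in both pairs and none lower, with a median log2 ratio of 0.55 and 0.74. The ones called, *Col4a3* and *Col23a1*, were of low level, at 2.0 to 5.17 FPKM in P2 and P3. *Col1a1* was 1618 and 996 FPKM in P2 and P3 and 898 and 670.3 FPKM in P4 and P5. *Col14a1*, a collagen that decorates fibrils, was 266 FPKM in P2 against 141 FPKM in P4 and 172 FPKM in P3 against 40.1 FPKM in P5. *Col18a1* was the other way, with 74.3 and 82.6 FPKM against 148 and 168 FPKM.

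Of 18 genes of elastic fibers and microfibrils, 4 were higher in both pairs and none lower, with a median log2 ratio of 0.45 and 0.80. They were *Mfap4*, *Mfap2* (94.0 and 67.1 FPKM against 44.5 and 25.3 FPKM), and the crosslinking enzymes *Lox* (274 and 218 FPKM against 109 and 66.4 FPKM) and *Loxl4* (11 and 8.45 FPKM against 4.97 and 2.70 FPKM). *Eln* (elastin) was 184 and 128 FPKM against 99.0 and 53.4 FPKM, with a log2 ratio of 0.89 and 1.26. Of 9 small leucine-rich proteoglycans, 3 were higher and none lower, with a median log2 ratio of 0.84 and 1.03. *Lum* (lumican) was 287 and 229 FPKM against 143 and 56.4 FPKM, and *Omd* and *Aspn* were under 5 FPKM. *Dcn* (decorin) was abundant in every library and differed little, at 5871 and 5164 FPKM against 5250.3 and 4859 FPKM.

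Enzymes that cut or remodel the matrix followed the matrix genes. Of 23 tested proteases and inhibitors, 5 were higher in both pairs and 1 lower, with a median log2 ratio of 0.54 and 0.86. *Mmp2* (gelatinase A) was 212 and 152 FPKM against 103 and 37.5 FPKM. *Adamts4* and *Adamts15*, which cut proteoglycans, were 62.5 and 67.6 FPKM against 24.5 and 21.1 FPKM, and 80.2 and 68.4 FPKM against 34.0 and 20.1 FPKM. Of 6 cartilage and tendon genes, *Cilp* was higher and *Matn4* lower. Among 14 complement genes, 3 were higher in both pairs and none lower, with a median log2 ratio of 0.51 and 0.56. *C4b* was 855 and 686 FPKM against 384 and 157 FPKM, *C7*, a part of the membrane attack complex, was 473 and 249 FPKM against 73.6 and 54.2 FPKM, and *C1qc* was 4.33 and 4.44 FPKM against 1.8 and 1.31 FPKM.

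Wnt genes were called in equal numbers in each direction, 5 higher and 5 lower of 16 tested, with a median log2 ratio of 0.28 and 0.59. Among the ligands called, 4 were lower and 1 higher. *Wnt4* was 20.6 FPKM in P2 and 41.8 FPKM in P3, against 115 FPKM in P4 and 172 FPKM in P5. *Wnt2b* was 3.59 and 1.86 FPKM against 20.6 and 11.4 FPKM, with 273 FPKM in P6. *Wnt2* and *Wnt9a* were at 0.846 to 4.93 FPKM in P2 and P3 and 6.38 to 13.8 FPKM in P4 and P5. *Wnt6* was the higher ligand, at 10.2 and 11.1 FPKM against 0.722 and 2.33 FPKM, and it was 1.30 FPKM in P1. Secreted inhibitors were among the higher genes. *Sfrp1* was 74.9 and 54.3 FPKM against 24.4 and 10.1 FPKM, *Sfrp4* was 30 and 12.6 FPKM against 13.4 and 3.61 FPKM, and *Dkk2* was 31.2 and 24.0 FPKM against 15.1 and 5.42 FPKM. *Rspo3*, which amplifies Wnt signals, was 57.3 and 50.1 FPKM against 24.6 and 13.5 FPKM. *Dkk3* was lower, at 18.5 and 33.3 FPKM against 93.9 and 119.9 FPKM.

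Of 16 tested Hedgehog and Notch genes, 5 were higher in both pairs and none lower, with a median log2 ratio of 0.51 in each pair. *Gli1*, a transcriptional target of Hedgehog signaling, was 9.56 and 7.31 FPKM in P2 and P3 and 2.78 and 1.56 FPKM in P4 and P5. *Ptch1*, a further target, was 3.46 and 2.63 FPKM against 2.22 and 2.01 FPKM and was not called. *Notch3* was 4.11 and 5.84 FPKM against 1.23 and 1.02 FPKM, and *Notch1* was 7.71 and 8.62 FPKM against 3.01 and 3.95 FPKM. The Notch ligand *Dll4* was 1.32 and 2.97 FPKM against 0.042 and 0.323 FPKM, and 0.063 FPKM in P1. The Notch target *Hes1* was 32.8 and 37.0 FPKM against 33.9 and 40.7 FPKM.

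Of 32 tested stromal transcription factors, 8 were higher in both pairs and 1 was lower, with a median log2 ratio of 0.47 and 0.94. *Ebf3* was 19.3 and 20.9 FPKM in P2 and P3 and 5.21 and 3.43 FPKM in P4 and P5. *Osr2* was 10.9 and 10.1 FPKM against 2.58 and 1.88 FPKM, and *Twist2* was 33.1 and 25.8 FPKM against 15.1 and 6.96 FPKM. *Meox2*, *Cebpa*, *Six2*, *Snai2* and *Hoxb5* were also higher. *Gata6* was the lower one, at 22.6 and 37.1 FPKM against 58.3 and 80.3 FPKM, and it was 80.9 FPKM in P6. *Wt1*, which mesothelial cells and some stromal cells share, was 79.2 and 106 FPKM against 149 and 197 FPKM, a log2 ratio of -0.92 and -0.90.

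**Figure D4:**
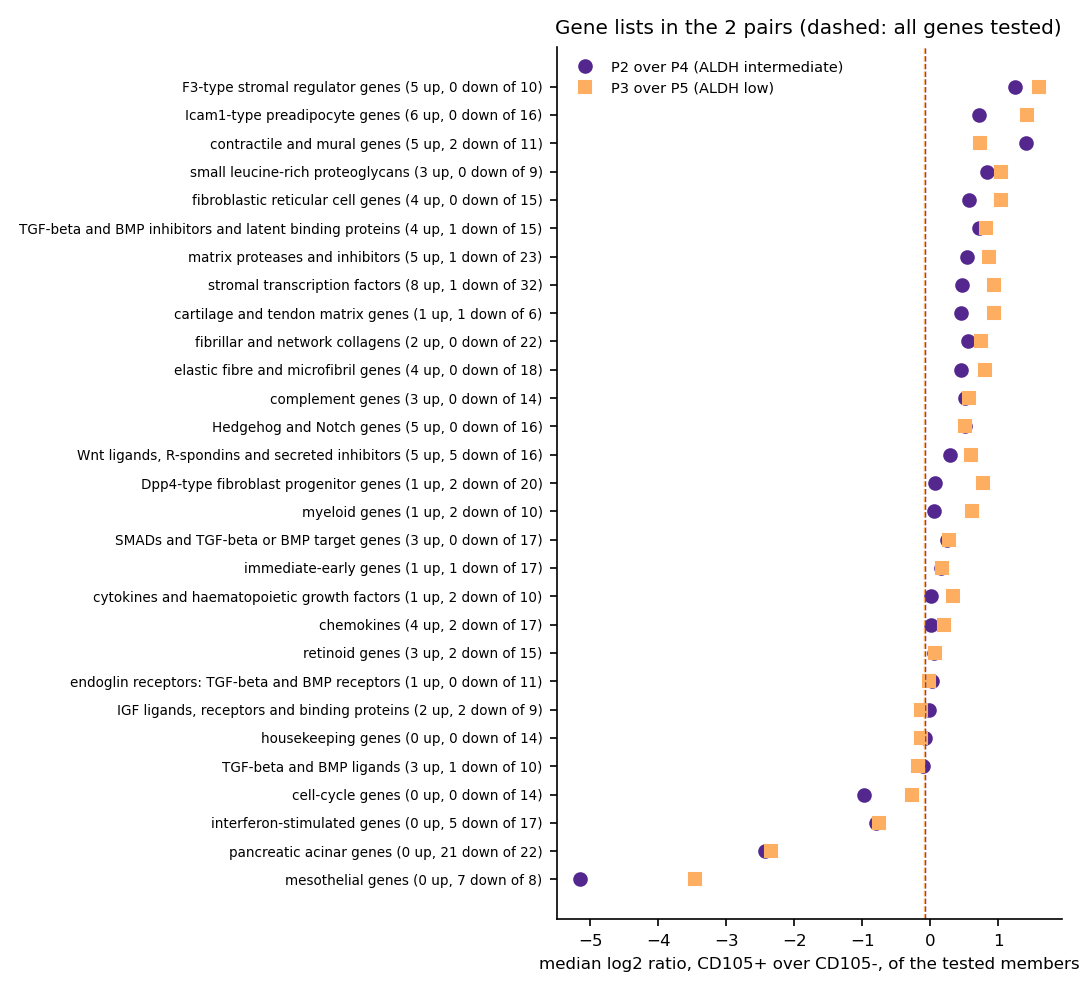
Median log2 ratio of CD105+ over CD105- for each gene list with at least 5 tested members, at intermediate ALDH (circles) and low ALDH (squares), with the counts called higher (up) and lower (down) in both pairs beside the name and dashed lines at the medians of all genes tested. The mesothelial and acinar lists lie furthest to the left and the F3-type list has the largest sum of the 2 medians.

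Markers of other cells moved with the comparison. Of 8 tested mesothelial genes, 7 were lower in both CD105+ libraries and none higher, with a median log2 ratio of -5.15 at intermediate ALDH and -3.46 at low ALDH. The summed level of the 11 listed mesothelial genes in the table was 95.9 and 148 FPKM in P2 and P3, 935 and 757 FPKM in P4 and P5, 73.1 FPKM in P1 and 3023 FPKM in P6, and *Cdh1* was listed at 0 in P1 and P3. As a percentage of the level in P6, the 7 genes had a median of 31.8% in P4, 18.7% in P5, 0.595% in P2 and 1.48% in P3. In P4 they ran from 3.57% (*Krt8*) to 44.0% (*Lrrn4*). *Msln* (mesothelin) was 6.86 and 2.31 FPKM in P4 and P5 against 171 FPKM in P6, whereas *Bnc1* was 14.0 and 14.2 FPKM against 40.4 FPKM. The percentage of the level in P6 varied by gene, and what this variation reflects was not tested. Mesothelial genes and the other lower genes described here shared the side on which they were high, and the part of mesothelial RNA in those differences was not tested. Of the 651 lower genes, 255 had their highest level in a library other than P6.

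Genes of pancreatic acinar cells, which secrete digestive enzymes and lie next to the omentum, were lower in 21 of 22 tested in both pairs, with a median log2 ratio of -2.43 and -2.35. This list was written with its values in these libraries known. The 32 listed genes in the table summed to 312 and 42.3 FPKM in P2 and P3, 1659 and 195 FPKM in P4 and P5, 19.5 FPKM in P1 and 2389.9 FPKM in P6. No gene of the list was at 0 in P2, P4 or P6, while 3 were listed at 0 in P3, 1 in P5 and 10 in P1. *Amy2a5*, a pancreatic amylase, was 75.8 FPKM in P2 against 433 FPKM in P4 and 8.01 FPKM in P3 against 53.7 FPKM in P5, and some of these genes have near-identical copies. The order P4, P2, P5, P3 set the intermediate ALDH libraries above the low ones, unlike the mesothelial genes. As a percentage of the level in P6, the 21 genes had a median of 70.3% in P4, 13.0% in P2, 8.02% in P5 and 1.32% in P3. In P4 they ran from 50.9% (*Pnliprp1*) to 88.6% (*Rnase1*). The part of acinar RNA in other results was not tested. Without the acinar genes and the small RNAs, 427 genes were higher and 627 lower in both pairs.

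**Figure D5:**
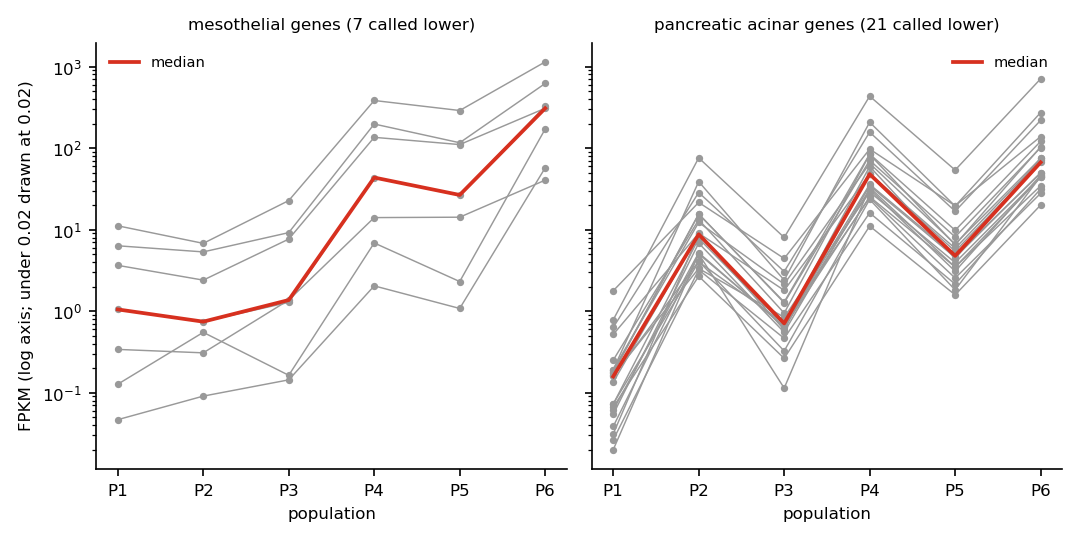
FPKM (log axis) across the 6 populations of the 7 mesothelial genes (left) and 21 acinar genes (right) called lower in both pairs, 1 gray line per gene and the median in red. The mesothelial genes are low in P1 to P3 and high in P4 to P6, whereas the acinar genes rise and fall between neighboring populations.

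Other lists were smaller or near zero. Of the 14 endothelial genes, 4 were tested and 2 were lower, *Esam* (0.274 and 1.17 FPKM against 15.1 and 9.55 FPKM) and *Kdr* (0.931 and 0.624 FPKM against 3.30 and 1.46 FPKM). Both were highest in P6, at 62.0 and 46.9 FPKM. Of the other tested genes, *Lyve1* was 1.64 and 1.85 FPKM against 0.985 and 0.645 FPKM and was called higher at low ALDH only. *Plvap* was 5.27 and 21.4 FPKM against 10.1 and 26.8 FPKM and was not called. *Pecam1*, *Flt1* and *Egfl7* were higher in P2 and P3 than in P4 and P5 but stayed under 1 FPKM in these libraries. The defining endothelial gene *Cdh5* was under 0.4 FPKM in all libraries, and the list summed to 9.95 and 27.9 FPKM in P2 and P3 and 30.2 and 39.4 FPKM in P4 and P5, of which *Plvap* made up much. No lymphoid gene of 9 was tested in both pairs, and their sums were 7.66 and 2.51 FPKM in P2 and P3 and 2.57 and 1.58 FPKM in P4 and P5. Of 10 tested myeloid genes, *C1qc* was higher and *Mrc1* and *Cd74* were lower in both pairs, and *Cd74*, the invariant chain of MHC class II, was 44.8 and 47.2 FPKM against 157 and 119 FPKM. The myeloid list summed to 98.3 and 122 FPKM in P2 and P3 and 197 and 164 FPKM in P4 and P5. Of 4 tested adipocyte genes, *Plin1* and *Plin4*, which coat lipid droplets, were higher, at 3.16 to 4.30 FPKM against 0.495 to 1.82 FPKM. The adipocyte hormone gene *Adipoq* was under 0.8 FPKM in P2 to P5, and the list summed to 158 and 252 FPKM in P2 and P3 and 229 and 361 FPKM in P4 and P5, mostly from *Fabp4*. Of 2 tested Schwann cell and glial genes, *Mbp* was lower in both pairs, at 1.41 and 4.74 FPKM against 20.0 and 21.4 FPKM. The other, *S100b*, ran the opposite way, at 6.76 and 5.43 FPKM against 4.30 and 1.36 FPKM, and was called higher at low ALDH only. *Sox10*, which defines these cells, was listed at 0 in all libraries. The list summed to 8.88 and 11.2 FPKM in P2 and P3 and 25.0 and 23.6 FPKM in P4 and P5. None of 14 housekeeping genes was called in either direction, with a median log2 ratio of -0.08 and -0.14.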

How the data were processed

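Libraries of 6 sorted omental populations were analyzed, 1 per population (NEBNext Ultra, single-end 76 bp reads). The authors deposited FPKM values per gene. Per the submitters' processing notes, TopHat2 2.0.7, Cufflinks 2.1.1 and mm10 were used, with roles not given in the sources used here. No further normalization was stated, and strandedness of counting was not given. Rows that shared a symbol (495) were summed.

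The members and gene lists were chosen with earlier results of these data known. For each pair, log2 of (FPKM + 0.1) was subtracted. Genes were tested where the higher library had at least 1 FPKM and called at 2-fold, so folds of low genes are understated. Genes named were the 15 called in both pairs in each direction with the largest smaller ratio at 5 FPKM or more in the higher library of both pairs (without Mir, Snor, predicted genes and acinar genes), up to 5 genes with opposite changes, marker and gate genes, and list members. *Jam2*, *Impdh1*, *Zbp1*, *Gbp10*, *Serbp1* and genes given as listed at 0 or as opposite beyond those 5 were chosen after their values were seen.

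Depth was estimated from steps in low FPKM values, taking transcript length less 200 nt (GENCODE M21). In P1 to P6, 55.0% to 60.5% of values worth 10 reads or fewer fell no more than 0.05 from a whole read, so no test for counts was run. Depth was the value tried that gave the largest such share. The 10% by chance holds for a depth fixed beforehand and is therefore no measure of this share. The 95% intervals (Clopper-Pearson on estimated reads, rounded to whole reads) cover counting error only and leave out the error of that estimate. Python 3.11.15, pandas 2.3.3, numpy 2.4.6, scipy 1.17.1 and matplotlib 3.10.9 were used. Alternatives were the pseudocount, minimum, fold, scaling and repeated symbols. 2 further settings were added after seeing the data. Some genes that entered the counts are not reported here by name.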

Additional observations from a re-analysis of the deposited data

Results flagged for a closer look

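The pairs disagreed for 19 genes, which were at least 2-fold higher in the CD105+ library of one pair and at least 2-fold lower in that of the other. The difference was not tested, since each population had 1 library. Of the 19, 12 were small RNAs, most of them listed at 0 in at least 1 library. *Mir24-2* was 20.4 FPKM in P2 and 30.6 FPKM in P5 and was listed at 0 in P3 and P4. *Snora30* was 15.3 FPKM in P2 and 10.2 FPKM in P5 and was listed at 0 in P3 and P4. *Snord32a* was 14.9 FPKM in P3 and 30.8 FPKM in P4, *Mir341* was 7.77 and 8.04 FPKM and *Snora5c* was 6.42 and 13.3 FPKM in these libraries, and all 3 were listed at 0 in P2 and P5.

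The others were *Ccl21b*, *Hba-a2*, *Hbb-b1*, *Ebf2*, *Phex*, *Prg2* and *Slc6a13*. *Ccl21b*, *Hba-a2* and *Hbb-b1* have near-identical copies and are uncertain. *Ebf2*, a factor of adipocyte progenitors, was listed at 0 in P2 and was 10.6 FPKM in P3, 11.9 FPKM in P4 and 3.09 FPKM in P5. *Phex*, a membrane peptidase of mineral balance, was 2.63 FPKM in P2 and 5.71 FPKM in P4, but 3.92 FPKM in P3 and 0.680 FPKM in P5.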

How the results depend on the processing

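No paired analysis was possible because the labels give 1 library per population and no replicate numbers to pair by. Counts are given as higher then lower in P2 over P4, higher then lower in P3 over P5, higher then lower in both pairs, and opposite, where they left a range of 1.5 times. A minimum of 5 FPKM gave 322, 559, 530, 495, 238, 423 and 11. A fold of 1.5 gave 1105, 1555, 1408, 1436, 875, 1163 and 41, and a fold of 3 gave 266, 577, 466, 396, 145, 343 and 12. Division by *Gapdh* gave 1247, 605, 1652, 399, 1003 and 344. A pseudocount of 1 FPKM gave 381 higher in P2 over P4 and 262 higher in both. No minimum gave 1008 higher in P2 over P4 and 43 opposite. With the lower genes limited to those whose highest library was not P6, 255 were lower in both, a setting added after seeing the data. The cause of these changes was not tested beyond the fewer or more genes that each minimum and fold admits. Median-of-ratios scaling, quantile normalization, keeping the highest row of a symbol and comparing the lowest library of one side with the highest of the other left every count they gave within 1.5 times. For 439 named and listed genes, 3564 recomputed values belonged to ratios called as deposited, of which 3279 kept the call, 285 lost it and 0 changed sign. These values include settings that could not change the outcome. A change of minimum, fold or pseudocount could not change a sign, and a fold of 1.5 or no minimum could not lose a call. Of 4338 values of ratios not called, 268 gained a call and 209 changed sign. With 1 library each, spread between mice is unknown.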

Other observations

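Cell-cycle genes differed at intermediate ALDH and not at low ALDH by the 2-fold rule, and the difference between the pairs was not tested. Of 14 tested genes, 7 were lower in P2 than in P4 and none was called in P3 over P5, with a median log2 ratio of -0.97 and -0.27. *Birc5*, a mitotic regulator, was 0.977 FPKM in P2 and 4.70 FPKM in P4, but 1.01 FPKM in both P3 and P5. *Ccnb1* (cyclin B1) was 1.41 FPKM in P2, 5.25 FPKM in P4, 0.631 FPKM in P3 and 0.925 FPKM in P5. This gene was not among the 14, since P3 and P5 were both under 1 FPKM and no call was possible at low ALDH. P4 thus stood apart from the other 3 libraries, and P6 was higher than P2, P3 and P5 in both genes, at 5.59 and 4.31 FPKM.

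Interferon-stimulated genes were lower in CD105+ cells in both pairs in 5 of 17 tested and higher in none, with a median log2 ratio of -0.80 and -0.76. *Gbp2*, a guanylate-binding protein, was 41.9 and 43.8 FPKM in P2 and P3 and 98.1 and 96.0 FPKM in P4 and P5. *Ifit3* was 14.5 and 17.4 FPKM against 34.2 and 41.4 FPKM. After division by *Gapdh*, *Gbp2*, *Ifit3*, *Ifi44* and *Irf7* were no longer called in either pair.

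Contractile genes split, with 5 of 11 higher and 2 lower in both pairs and a median log2 ratio of 1.40 and 0.72. *Mylk* (myosin light chain kinase) was 22.8 and 30.9 FPKM in P2 and P3 and 5.23 and 13.6 FPKM in P4 and P5, and it was 5.63 FPKM in P1. *Pdgfrb*, a receptor of pericytes and fibroblasts, was 76.9 and 70.0 FPKM against 24.6 and 23.7 FPKM. The smooth muscle genes *Myh11* and *Acta2* were lower, *Myh11* at 6.31 FPKM in P2 against 56.6 FPKM in P4 and 35.1 FPKM in P3 against 91.8 FPKM in P5, and *Acta2* at 1.90 and 4.32 FPKM against 7.06 and 10.4 FPKM.

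Genes of the IGF system were called 2 higher and 2 lower of 9, with a median log2 ratio of -0.02 and -0.15. *Igf1*, the ligand, was 125 and 103 FPKM in P2 and P3 and 39.3 and 32.7 FPKM in P4 and P5. *Igfbp5*, which binds it, was 79.6 and 77.9 FPKM against 745 and 414 FPKM, and 1019.5 FPKM in P6. *Igfbp6* was 331 and 245 FPKM against 905 and 750.5 FPKM, and *Igfbp7* was 2126 and 2113 FPKM against 973 and 1048 FPKM. Retinoid genes were called 3 higher and 2 lower of 15, with a median log2 ratio of 0.05 and 0.07. *Rbp4*, the carrier of retinol, was 46.0 and 30.2 FPKM against 13.9 and 6.51 FPKM, whereas its receptor *Stra6* was 0.435 and 0.719 FPKM against 4.23 and 2.96 FPKM and *Rdh10*, which oxidizes retinol, was 31.2 and 64.2 FPKM against 112 and 149 FPKM. *Cyp26b1*, which breaks down retinoic acid, was 4.01 and 3.80 FPKM against 1.83 and 1.19 FPKM.

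Immediate-early genes, which dissociation can induce, were called 1 higher (*Egr2*) and 1 lower (*Ier3*) of 17, and their sums lay between 11075 and 12294 FPKM in P2 to P5. *S100a8* and *S100a9*, neutrophil genes chosen after their values were seen, were 2.21 and 1.92 FPKM in P2, 4.77 and 5.18 FPKM in P3, 0.341 and 0.283 FPKM in P5 and listed at 0 in P4.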
